A study of Drosophila melanogaster with 2 samples.

Results

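CG2875 peaks at head-to-head coding promoters were the 584 peaks of 4278 (13.7%, exact binomial 95% interval 12.6 to 14.7%) whose summit, the position of highest enrichment, marked a promoter that faces another gene's promoter. The 4278 peaks are the authors' reproducible list, thresholded by replicate rank agreement (IDR), on the dm6 assembly. A peak was counted when its summit lay within 500 bp of a transcription start site (TSS) of a protein-coding gene and when the nearest such TSS had, within 1000 bp upstream, a TSS of another protein-coding gene on the opposite strand. The distance between these 2 TSSs is called the gap. The peaks fell on 542 gene pairs with 1081 genes and made up 35.6% (33.2 to 37.9%) of the 1642 peaks near any coding TSS. The other 1058 of these are called one-directional, and 2636 peaks lay farther than 500 bp from every coding TSS. Membership used position only, not signal.

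The peaks come from chromatin immunoprecipitation followed by sequencing (ChIP-seq), which maps where a protein sits on DNA. Flies of the transgenic strain CG2875-GFP stably carried CG2875 with green fluorescent protein at its C-terminus, and an anti-GFP antibody was used on chromatin from whole embryos of mixed sex, collected from 0 to 14 h of development. The single group had 2 biological replicates, both made with the same fusion line, and a shared control alignment entered the peak calling. No untagged line, mock immunoprecipitation or second condition was analysed here, so binding of the fusion protein and enrichment common to accessible promoters cannot be told apart. Whole embryos pool all cell types and stages of that interval.

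In the compact fly genome many neighbouring genes are transcribed away from each other from a shared nucleosome-poor stretch, and such pairs are rich in housekeeping genes. Their promoters often carry the DNA replication-related element (DRE), bound by Dref and BEAF-32, or the element called motif 1, bound by M1BP, and they often lie at borders between chromatin domains, where the architectural proteins Chromator (Chro) and Cp190 are found. TATA boxes and GAGA elements are better known from promoters of regulated genes.

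The DNA between the facing TSSs of 7 pairs shows what these sites look like. The first 6 are the strongest peaks with a gap of 60 to 300 bp, pairs on 1 chromosome arm and 1 gap that overlaps an annotated exon being left aside, and the last was added, after its values were seen, as a ribosomal protein pair with a full DRE. Sequences are dm6 (Release 6 genome), plus strand, 5′ to 3′. The first gene of each name is transcribed to the left and the second to the right. Capitals mark matches, on either strand, to the motifs of 6 or more letters searched below.
Chro/Ssl1: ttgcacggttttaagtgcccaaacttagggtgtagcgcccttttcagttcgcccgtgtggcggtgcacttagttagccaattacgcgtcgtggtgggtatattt
Art3/mRpS10: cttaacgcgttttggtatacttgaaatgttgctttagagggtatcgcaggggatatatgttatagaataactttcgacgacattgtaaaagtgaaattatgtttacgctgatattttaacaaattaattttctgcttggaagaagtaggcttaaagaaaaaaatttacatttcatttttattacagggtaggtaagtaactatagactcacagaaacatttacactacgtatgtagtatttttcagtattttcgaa
Tcs5/CHMP2B: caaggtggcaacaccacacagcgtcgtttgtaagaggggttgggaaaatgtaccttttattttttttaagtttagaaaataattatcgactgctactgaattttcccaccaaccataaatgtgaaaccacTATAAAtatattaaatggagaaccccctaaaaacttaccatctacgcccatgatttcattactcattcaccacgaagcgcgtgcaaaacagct
Lon/PIG-F: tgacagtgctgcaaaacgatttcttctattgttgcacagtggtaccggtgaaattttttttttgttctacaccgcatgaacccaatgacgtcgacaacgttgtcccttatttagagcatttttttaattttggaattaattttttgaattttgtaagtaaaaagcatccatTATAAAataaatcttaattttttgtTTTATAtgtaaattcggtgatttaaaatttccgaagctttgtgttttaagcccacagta
CG13390/CG17294: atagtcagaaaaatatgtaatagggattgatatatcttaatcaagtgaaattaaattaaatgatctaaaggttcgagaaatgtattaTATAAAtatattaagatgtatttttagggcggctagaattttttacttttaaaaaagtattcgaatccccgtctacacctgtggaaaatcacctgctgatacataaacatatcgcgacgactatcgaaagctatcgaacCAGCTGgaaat
RpS27/Nup37: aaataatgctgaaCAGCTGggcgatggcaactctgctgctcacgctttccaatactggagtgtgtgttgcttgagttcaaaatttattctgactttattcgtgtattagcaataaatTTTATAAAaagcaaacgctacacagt
RpS25/CG4820: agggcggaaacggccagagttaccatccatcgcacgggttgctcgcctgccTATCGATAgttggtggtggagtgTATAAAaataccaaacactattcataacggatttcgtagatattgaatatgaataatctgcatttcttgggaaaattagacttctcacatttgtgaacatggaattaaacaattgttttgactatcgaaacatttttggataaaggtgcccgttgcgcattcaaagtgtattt

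Counted from the first printed base, the summit of Art3/mRpS10 (chr3R:15229409-15229664) fell at base 124 of 256, that of Tcs5/CHMP2B (chr3L:5139396-5139618) at base 107 of 223 and that of Lon/PIG-F (chr3L:19612200-19612454) at base 121 of 255. These 3 summits were close to the middle of their gaps. The summit of CG13390/CG17294 (chr2L:8376798-8377034) was at base 78 of 237, 10 bp from a TATAAA match. In RpS25/CG4820 (chr3R:11216288-11216534) the summit, at base 43, was 9 bp from the start of the DRE TATCGATA and on the side of the ribosomal protein gene. For Chro/Ssl1 (chr3L:22878985-22879088) and RpS27/Nup37 (chr3R:25247515-25247657) the summit lay outside the printed stretch, 82 bp into Chro and 5 bp into RpS27. The Chro/Ssl1 and Art3/mRpS10 gaps held no match of 6 or more letters, although their peaks were among the strongest.

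The strongest head-to-head peak marked Ugalt/eIF2Bbeta, and the pairs below it held genes of varied functions. The signal value is the authors' own value for each peak in a list, so it ranks peaks within a list. The pooled value was nearly the sum of the replicate values (median ratio 0.998 over 576 peaks). At Ugalt/eIF2Bbeta, a UDP-galactose transporter gene and a translation initiation factor subunit gene on X, the peak reached 1955 in the pooled list, 969 in the first library and 992 in the second (replicates 1 and 2). It was the strongest head-to-head peak and the 5th of all 4278. Chro/Ssl1, which pairs the Chromator gene with a TFIIH subunit gene, reached 1529, of which 770 in replicate 1 and 749 in replicate 2. PNPase/Gprk2, an RNA-degrading enzyme and a receptor kinase gene, had 1467, with 686 and 778.

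CenG1A/mRpS23, an Arf GTPase-activating protein and a mitochondrial ribosomal protein gene, had a signal of 1319, with 607 and 719 in the replicates. Art3/mRpS10, an arginine methyltransferase and a second mitochondrial ribosomal protein gene, had 1283, with 665 and 612. Tcs5/CHMP2B, whose second gene encodes an ESCRT-III membrane remodelling subunit, had 1179, with 593 in both. The value was higher in replicate 2 at the Ugalt, PNPase and CenG1A pairs and higher in replicate 1 at the Chro, Art3 and Tcs5 pairs.

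Of the 24 strongest peaks 16 had their summit between the TSSs. Beside the 6 pairs described, the 24 ran from 1190 at CG9147/Fbw5 to 725 at CG7841/Z600, whose second gene encodes an embryonic inhibitor of mitosis. They included the peroxisome gene pair CG8320/Pex11ab (1120), the Rac-like GTPase gene pair CG5611/Mtl (1118), bves/Stt3A with an oligosaccharyltransferase subunit gene (1036), and Lon/PIG-F with a mitochondrial protease gene and a GPI-anchor gene (965). The Golgi and lysosome pair Lamtor3/fws had 762, with 406 and 357 in the replicates. Hsp83/CG14965, the Hsp90 gene pair, had the most unequal replicates of the 24, 275 in replicate 1 and 479 in replicate 2, at a pooled 754.

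Peaks at head-to-head and one-directional promoters had similar signals. The head-to-head median was 192 (quartiles 146 and 302, range 119.5 to 1955), against 198 at one-directional promoters and 184 at the other peaks. The ratio of the medians of head-to-head to one-directional peaks was 0.970 in the pooled list, 0.973 in replicate 1 and 0.949 in replicate 2. No test over samples is possible with 1 group of 2 libraries, and the ratio lay on both sides of 1 under other TSS definitions. By rank, 4 of the 20 strongest peaks, 19 of the strongest 100 (11.8 to 28.1%) and 150 of the strongest 1000 (15.0%) were head-to-head, and the share in signal quartiles ran from 13.0% in the weakest to 15.0% in the strongest.

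Most of these peaks recurred in both replicates, which the IDR threshold on replicate rank agreement already selects for. Among the 4278 strongest peaks of each replicate, a reciprocal overlap of at least 50% in both lists was found for 346 of the 584 (59.2%, 55.1 to 63.3%), beside 59.9% of all peaks and 59.4% of one-directional ones. In the longer relaxed lists of 30000 peaks 576 (98.6%, 97.3 to 99.4%) overlapped a peak in both replicates, beside 99.5% (98.9 to 99.9%) of one-directional and 99.7% of the other peaks. Across these 576 peaks, which share the libraries and the pooled calls that chose them, replicate signals had a Spearman rho of 0.702 and a Pearson r of 0.794 on the log2 scale, beside a rho of 0.727 and an r of 0.793 at 1053 one-directional peaks. The 8 peaks without a counterpart in a replicate compare with 5 of 1058 and 9 of 2636 in the other classes. PolD2/CG13933, with a DNA polymerase delta subunit gene, had a pooled signal of 458 and 226 in replicate 1, while the nearest replicate 2 summit was 18804 bp away. PIG-Q/U2af50, with a splicing factor gene, likewise had 369 pooled and 188 in replicate 1, and mRpL24/betaggt-I had 314 and 146. Their pooled values were well above those of replicate 1. Why the replicate 2 list holds no overlapping peak there was not tested.

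Summits sat between the facing TSSs. Of the 584 summits 440 (75.3%, 71.6 to 78.8%) lay between the TSSs, although the gap made up on average 26.6% of the span in which a summit could be counted. With negative positions upstream, the median summit was at -69 bp from the nearest TSS (quartiles -121 and -1.75), compared with -153 bp at one-directional promoters (quartiles -274 and -22). Geometry fixes part of this difference, because a summit between the TSSs cannot be farther from the nearest one than the middle of the gap. The share upstream of the nearest TSS was 75.3% at head-to-head promoters, where it is the share between the TSSs and is limited by the gap, and 77.9% at one-directional ones. Both TSSs were within 500 bp of the summit for 454 of the 584 peaks (77.7%), so those peaks cannot be assigned to 1 gene by distance. The 144 summits outside the gap were a median of 52.5 bp inside the nearest gene, and 58 of them belonged to gaps of 200 bp or less. Their median signal was 181, against 196 for summits between the TSSs.

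**Figure D1:**
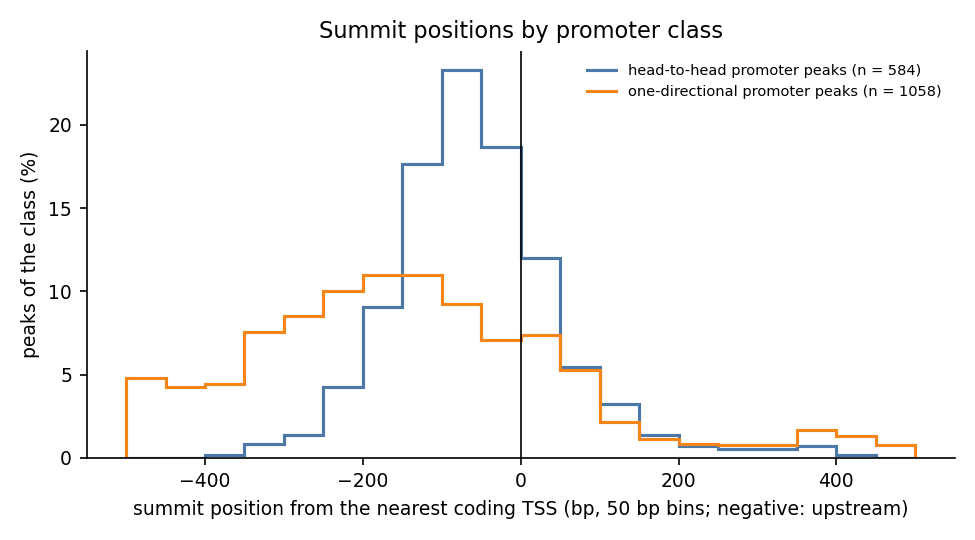
Share of peaks (%, y axis) by summit position from the nearest coding TSS (bp, x axis, 50 bp bins, negative upstream) for 584 head-to-head and 1058 one-directional promoter peaks. The head-to-head curve peaks at 23.3% between 100 and 50 bp upstream, while the one-directional curve is flatter and reaches 11.0% in 2 bins from 200 to 100 bp upstream.

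**Figure D2:**
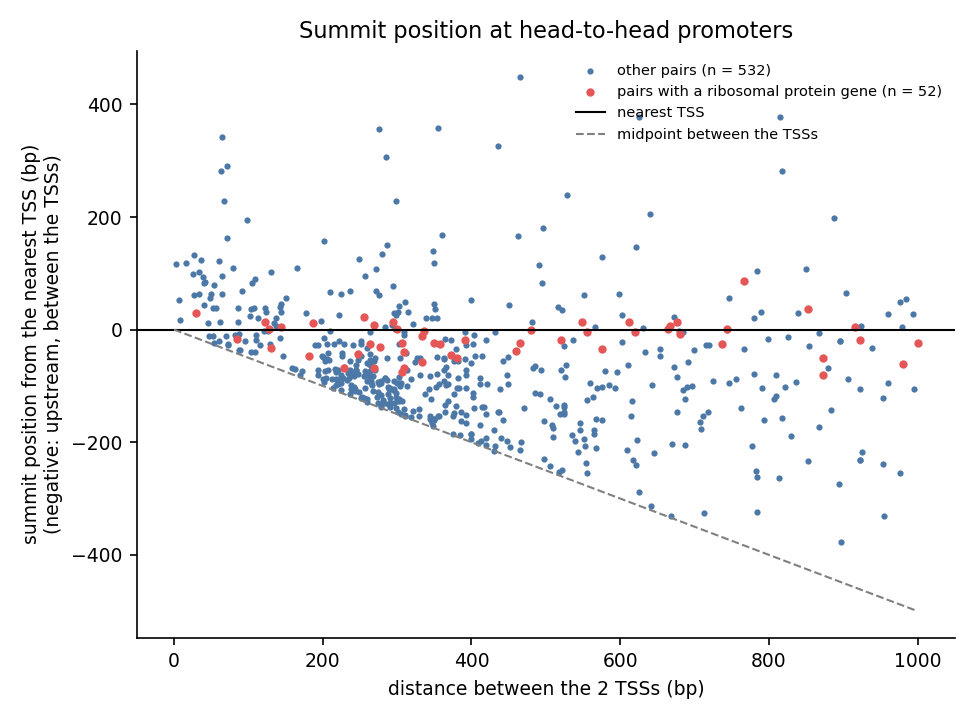
Summit position from the nearest TSS (bp, y axis, negative between the TSSs) against the gap (bp, x axis), 1 point per peak, with the 52 peaks at ribosomal protein gene pairs in red. The dashed line is the middle of the gap, which bounds the points from below by construction. Points cluster along it for gaps of about 200 to 300 bp, and red points stay near 0 at all gaps.

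The position relative to the gap changed with its length. For gaps up to 100 bp 27.1% of 48 summits lay between the TSSs, with the median summit 59 bp inside a gene. For gaps above 100 and up to 200 bp the share was 23 of 46, and it rose to 83.3% of 150 above 200 and up to 300 bp, 86.4% of 169 up to 500 bp and 77.8% of 171 up to 1000 bp. The gap itself made up 5.26%, 12.6%, 20.3%, 27.4% and 41.0% of the countable span in these 5 classes. Of the summits between the TSSs, 76.8% (68.4 to 83.9%) lay in the middle 50% of a gap of 200 to 300 bp, 55.5% (47.0 to 63.7%) in that of a gap of 300 to 500 bp and 36.8% (28.7 to 45.6%) in that of a longer one. In the longest gaps 60.2% were within 150 bp of a TSS. Most summits between the TSSs were thus mid-gap in gaps of 200 to 300 bp and relatively nearer to 1 of the TSSs in gaps above 500 bp. In bp the median position from the nearest TSS changed little, while the spread widened. For all summits the median was -78 (quartiles -103 and -34.25) in gaps of 200 to 300 bp. It was -92 (-147 and -35) up to 500 bp and -94 (-174 and -5.5) up to 1000 bp. A similar median distance is near the middle of a short gap and lies near the end of a long one.

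The extremes show both forms. In dpa/didum, a replicative helicase subunit gene and a myosin V gene with a gap of 2 bp, the summit lay 117 bp inside dpa with a signal of 230 (102 and 118 in the replicates). RpS7/Anp, with the longest gap of 1000 bp, had its summit 23 bp upstream of RpS7 and a signal of 242 (108 and 139). At the thresholds of the rule, 0 members had a summit more than 450 bp from the TSS, and 8 peaks that missed the rule by up to 50 bp of that distance had a median signal of 182. The 23 members with a gap above 900 bp had a median of 163, and 17 peaks with a gap up to 100 bp too long had 168.

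Summits of the IDR list occurred at a minority of all head-to-head pairs. The annotation held 2667 such pairs among 13945 coding genes. Where a pair had several start sites, its gap was here the shortest one. Of the 2667 pairs, 603 (22.6%, 21.0 to 24.3%) had a summit in the gap or within 500 bp beyond it. The 4278 strongest peaks of replicate 1 alone gave 21.7% and those of replicate 2 gave 23.2%. In the longer relaxed pooled list, 1692 of the 2667 pairs (63.4%, 61.6 to 65.3%) had a summit there. Pairs with no summit are thus those without an IDR summit, and many of them hold a weaker one. The 584 peaks were assigned by the gap at their own nearest TSS. They fell on 532 of the 603 pairs, so some of their 542 pairs count here as pairs with no summit. Of 8893 coding genes in no pair, 9.23% had a summit within 500 bp of a TSS, but a pair offers a longer stretch than 1 promoter. With windows of equal length, 500 bp to each side of a TSS, 1244 of 6037 TSSs that face another gene (20.6%, 19.6 to 21.7%) held a summit and 1195 of 13216 other coding TSSs (9.04%, 8.56 to 9.54%) did. The values were 19.9% and 8.63% in replicate 1, and 21.2% and 9.59% in replicate 2. Neighbouring TSSs share summits, so the intervals are narrower than independent promoters would give.

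The bound share was highest for gaps above 200 and up to 300 bp. There 158 of 542 pairs (29.2%, 25.4 to 33.2%) had a summit, compared with 72 of 430 (16.7%, 13.3 to 20.6%) for gaps up to 100 bp and 55 of 356 (15.4%, 11.9 to 19.6%) for gaps up to 200 bp. Longer gaps had 160 of 667 (20.8 to 27.4%) up to 500 bp and 158 of 672 (20.4 to 26.9%) up to 1000 bp. Each replicate alone gave its highest share in the same class, 28.4% in replicate 1 and 27.9% in replicate 2, and its lowest in the class below, 13.5% and 15.2%. With a window of fixed length, 250 bp to each side of the midpoint, the 5 shares in order of gap were 13.0%, 14.6%, 27.1%, 21.4% and 9.82%, the last for gaps whose ends fall outside this window. Without pairs that hold a ribosomal protein gene they were 15.8%, 14.1%, 28.0%, 22.9% and 21.5%. By each peak's own gap, which can differ from the shortest gap of its pair, the median signal was also highest at 200 to 300 bp. It was 217, with 105 and 124 in the replicates, beside 179 to 206 in the other classes.

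**Figure D3:**
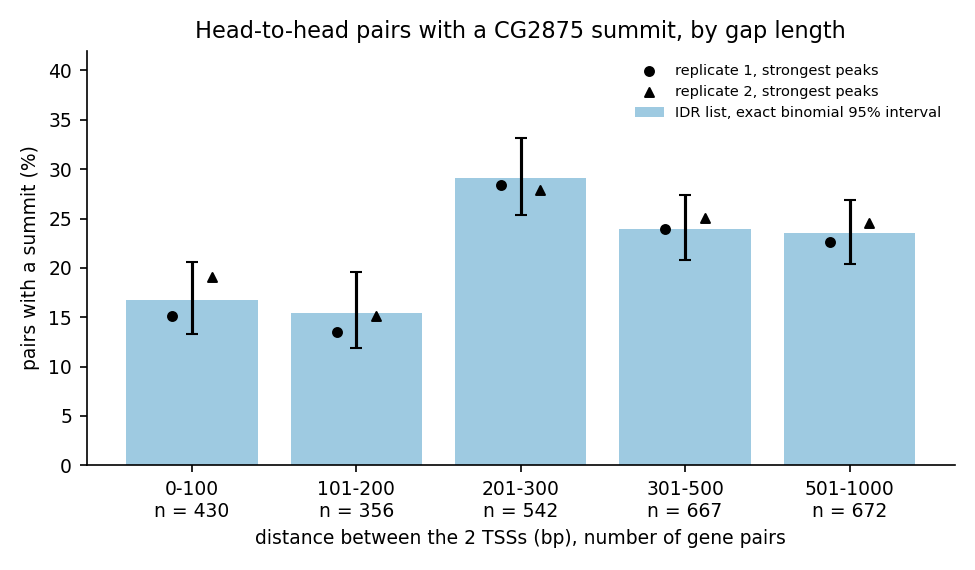
Share of head-to-head pairs with a summit (%, y axis) by gap class (bp, x axis). Bars give the IDR list with exact binomial 95% intervals and symbols each replicate's strongest 4278 peaks. The bar for gaps of 200 to 300 bp, at 29.2%, is the tallest in the list and in both replicates.

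The bound share also differed between chromosomes. On X 58 of 403 pairs (14.4%) had a summit, on 2L 22.0%, on 2R 21.4%, on 3L 25.1% and on 3R 186 of 683 (27.2%). In replicate 1 the share on X was 14.9% and on 3R 25.3%, and in replicate 2 it was 15.4% and 27.1%. On chromosome 4 the number was 1 of 11. The X was the lowest of the 5 large arms and 3R the highest in the pooled peaks and in both replicates. Shares by chromosome were not computed for other promoters or peaks, so the difference cannot be read as a trait of head-to-head pairs.

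In 42 pairs 2 peaks were assigned to the same genes. The paired summits were a median of 206 bp apart, and 29 of the 42 distances were between 199 and 220 bp. The smallest distance between any summits of the list is also 199 bp, so closer sites could not appear as separate summits. In 30 of the 42 pairs each summit was nearest to a different gene, and the stronger peak had a median of 1.59 times the signal of the weaker. Vps33B/Fur1, with a vesicle tethering gene and a furin protease gene, had summits of 520 (272 and 246 in the replicates) and 134 (68.9 and 68.6), 202 bp apart. RpL19/CG3776 had 586 near RpL19 (230 and 349) and 147 near CG3776 (66.7 and 81.5). For the widest example, Dic1/Elp6, the summits of 571 and 158 were 2557 bp apart and belonged to different start sites of the genes.

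Among 15 gene lists with head-to-head pairs, those with a cytoplasmic ribosomal protein gene were marked most often. Of 57 such pairs 48 (84.2%, 72.1 to 92.5%) had a summit, 46 in replicate 1 and 47 in replicate 2, against 555 of the 2610 other pairs (21.3%). Ribosomal protein genes in no pair had a summit in 24 of 37 cases (64.9%), against 9.23% of all unpaired genes, so the high share was not confined to facing promoters. Large-subunit pairs had 31 of 35 and small-subunit pairs 17 of 22. These genes were already known to be marked in these data, and the count describes the head-to-head ones. The 9 pairs with no summit included CG3702/RpL40, RpS13/CSN8, RpS28a/Axn, JhI-21/RpL7-like, Lsm10/RpS15Ab, CG3902/RpL26, RpL24-like/CG5276 and RpS19b/CG5854. Among them RpS28a, RpS15Ab and RpS19b are second copies of ribosomal protein genes, and 2 are named as ribosomal protein-like. How the alignment treated reads from near-identical copies is not known, so the values of such copies are uncertain.

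**Figure D4:**
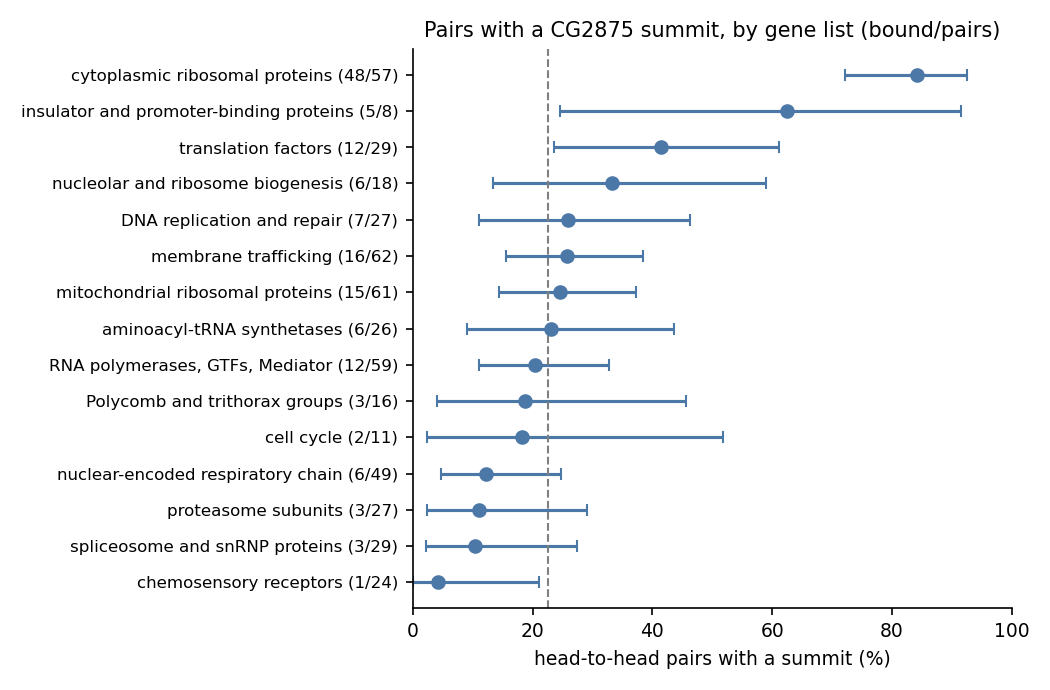
Share of head-to-head pairs with a summit (%, x axis) for 15 gene lists, with the bound and total number of pairs in parentheses. Points are shares, bars exact binomial 95% intervals and the dashed line the 22.6% of all pairs. The ribosomal protein point, at 84.2%, lies far to the right of the line.

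At these pairs the summit was placed at the ribosomal protein gene rather than in the middle of the gap. The ribosomal protein TSS was the nearest in 46 of 52 peaks. The summit was a median of 21 bp upstream of that TSS (quartiles 47 upstream and 2 downstream), and 40 of the 52 were within 50 bp of it. Of the 532 other head-to-head summits, 137 (25.8%) were within 50 bp of the nearest TSS. The strongest peak was RpL7/Ripalpha, where the partner encodes a protein that interacts with replication protein A, at 918 (399 and 521 in the replicates), with its summit 30 bp inside RpL7. RpS27/Nup37, with a nucleoporin gene, had 842 (348 and 484), 5 bp inside RpS27. RpL13/Dref, whose partner encodes the DRE-binding factor itself, had 479 (210 and 268), 16 bp upstream of RpL13.

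The median signal of the 52 peaks was 289.5, against 182 for other head-to-head peaks, with a range of 123.1 to 918 that overlaps theirs. They also differed between replicates: the median was 118 in replicate 1 and 163 in replicate 2, and 48 of 51 peaks were higher in replicate 2, beside 70.3% of the other head-to-head peaks and 73.0% of all peaks. Read depth is unknown for either library, so a shift shared by all peaks cannot be read as binding, and the cause of the further shift at ribosomal protein pairs was not tested.

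Other gene groups lay near the share of all pairs or had few pairs. A pair counts for a list when either gene is in it, so the summit can lie nearer to the partner. The listed gene was the nearest in 6 of 12 translation factor peaks, 1 of 6 nucleolar and ribosome biogenesis peaks and 7 of 16 mitochondrial ribosomal protein peaks. It was the nearest in 9 of 16 membrane trafficking peaks and in 2 of 12 RNA polymerase, general transcription factor and Mediator peaks. Translation factor pairs had 12 of 29 with a summit (41.4%, 23.5 to 61.1%), including Ugalt/eIF2Bbeta, CG18428/eIF4EHP with a cap-binding protein gene (578, with 287 and 289 in the replicates) and RpL28/eIF1 (405, with 184 and 228), which is a ribosomal protein pair as well. The Ugalt/eIF2Bbeta summit was 691 bp from the eIF2Bbeta TSS. The translation factor share was 31.0% with a TSS window of 250 bp, beside 21.4% of all pairs. Among the stronger 50% of peaks it was 17.2%, beside 12.8%. Pairs with an insulator or promoter-binding protein gene had 5 of 8 (24.5 to 91.5%), including the ribosomal protein pair RpL13/Dref. Beside Chro and Dref these included Cp190/CG4338 (554, with 297 and 255), an architectural cofactor gene, and M1BP/CG8202, the gene of the motif 1 binding protein, whose gap held a summit near each gene (291 near M1BP and 221 near CG8202). The fifth bound pair was CG12974/pzg (185), with the gene of a Chromator partner. The M1BP and pzg pairs were named after their values were seen. Nucleolar and ribosome biogenesis pairs had 6 of 18 (13.3 to 59.0%), among them POSH/Ns2 with a nucleostemin gene (543). RpL36/Mybbp1A (268) and RpS6/bys (202) are ribosomal protein pairs as well. Their summits were 26 bp upstream of RpL36 and 14 bp inside RpS6.

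Mitochondrial ribosomal protein pairs had 15 of 61 (24.6%, 14.5 to 37.3%), close to the 22.6% of all pairs, although CenG1A/mRpS23, Art3/mRpS10 and mRpL41/CG8079 (1091) were among the 11 strongest peaks. Of 16 unpaired genes of this list 0 had a summit, which allows a share of up to about 18.8%. This limit is the approximate one of 3 divided by the number of genes, not an exact interval. Membrane trafficking pairs had 16 of 62, DNA replication and repair 7 of 27, aminoacyl-tRNA synthetases 6 of 26, and RNA polymerase, general transcription factor and Mediator pairs 12 of 59, such as CG4297/MED15 (569) and Rev1/MED30 (341). In Mcm2/RPA1 both genes act in DNA replication, a helicase subunit and a single-strand binding protein gene, and the peak had 149 (42.2 and 99.3 in the replicates).

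Shares below the 22.6% of all pairs, with intervals that include it, came from several lists. Nuclear-encoded respiratory chain pairs had 6 of 49 (12.2%, 4.63 to 24.8%), of which TppII/ND-MWFE had unequal replicates of 54.2 and 158. Proteasome pairs had 3 of 27 (2.35 to 29.2%), including Rpn3/l(2)37Bb (223). Spliceosome and snRNP pairs had 3 of 29 (2.19 to 27.4%), which were 5 of 29 without replicate 1 and 4 of 29 without replicate 2. Cell cycle pairs had 2 of 11 (2.28 to 51.8%), Stam/aurB with the Aurora B kinase gene (163) and mRpS7/Cdk1 (147). Polycomb and trithorax pairs had 3 of 16 (4.047 to 45.65%), among them E(z)/Cnep1r2 with the H3K27 methyltransferase gene (420) and Arl1/brm with the Brahma remodeller gene (335). Chemosensory receptor pairs had 1 of 24 (0.105 to 21.1%), an interval below the share of all pairs. This was Idua/Gr32a, where the summit was 238 bp upstream of Idua and 715 bp from the TSS of the taste receptor gene. The 34 segmentation and Hox genes formed 0 coding head-to-head pairs, and 3 of them (8.82%) had a summit, close to the 9.23% of all unpaired genes. The facing promoter of CG2875 itself, in the pair CG2875/AstA-R1 with a gap of 914 bp, had no summit, and the nearest was 7865 bp from the CG2875 TSS.

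The DRE and motif 1 were more frequent at head-to-head than at one-directional summits, at shares near those of facing promoters with no summit. Summits were a median of 85 bp from the nearest TSS at head-to-head and 180.5 bp at one-directional promoters. Windows around them thus hold unlike parts of a promoter, and how far this shifts the shares was not tested. In windows of 100 bp to each side of the summit, 9.08% of head-to-head peaks held the DRE (TATCGATA, which reads the same on both strands), against 2.17% of one-directional peaks, 0.228% of the other peaks and 6.43% of all coding TSSs. The midpoints of the 2064 pairs with no summit held it in 9.21%. The motif 1 core GGTCACAC, searched on both strands like all motifs here, was in 6.34% of head-to-head peaks, 2.93% of one-directional peaks, 0.379% of the other peaks, 5.96% of midpoints of pairs with no summit and 5.68% of all coding TSSs. The intervals of head-to-head and one-directional peaks did not overlap for either motif (6.87 to 11.7% and 1.38 to 3.24% for the DRE), whereas those of head-to-head peaks included the value of pairs with no summit. In replicate 1 alone motif 1 was in 3.76% of head-to-head peaks (2.34 to 5.68%) and 2.46% of one-directional ones (1.60 to 3.62%), so without replicate 2 its intervals overlapped, and they also overlapped among the stronger 50% of peaks, at 2.32% and 1.97%. In replicate 2 alone it was in 7.59% and 3.53%. The DRE was in 8.05% and 2.37% in replicate 1 alone and in 8.09% and 2.99% in replicate 2 alone. The comparison by library was chosen after seeing the data. The half-site CGATA of BEAF-32, which is contained in the DRE, was in 36.6% of head-to-head peaks, 27.8% of one-directional ones, 43.1% of midpoints with no summit and 37.2% of all coding TSSs.

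Summits and midpoints are not the same positions, so the midpoints of the 603 pairs with a summit were set beside those of the 2064 without. The DRE was in 6.30% (4.50 to 8.55%) of the midpoints with a summit nearby and 9.21% (7.99 to 10.5%) of those without, and the motif 1 core in 3.48% (2.17 to 5.27%) and 5.96% (4.98 to 7.07%). CGATA was in 211 of the 603 (31.2 to 39.0%) and in 43.1% (41.0 to 45.3%). TATAAA was in 46.1% (42.1 to 50.2%) and 37.9% (35.8 to 40.0%), and GAGAG in 13.8% and 14.8%. Pairs with a summit thus had lower shares of CGATA, the DRE and motif 1 and a higher share of TATAAA at their midpoints. The intervals did not overlap for CGATA and TATAAA and did for the DRE and motif 1. This is a description and no test, and overlap does not show that shares are equal. The lower quartile of the gap was 220 bp in pairs with a summit and 144 bp in those without, and its part was not tested. The median GC content was 31.3% at midpoints with a summit and 33.8% at those without, and its part was not tested.

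GAGA and TATA letters also differed between the promoter classes, whose windows again lay at unlike distances from the TSS. GAGAG was in 15.2% of head-to-head peaks (12.4 to 18.4%), 29.4% of one-directional peaks (26.7 to 32.2%), 14.8% of midpoints with no summit and 24.9% of all coding TSSs. In replicate 1 alone GAGAG was in 15.0% and 28.2% of the promoter classes, and in replicate 2 alone in 17.5% and 31.7%. TATAAA was in 42.8% of head-to-head peaks (38.8 to 46.9%), 31.1% of one-directional peaks (28.3 to 34.0%), 37.9% of midpoints with no summit and 26.8% of all coding TSSs. It was in 44.5% and 33.7% of the promoter classes in replicate 1 alone, and in 37.1% and 29.1% in replicate 2 alone. Head-to-head summits lay in AT-rich DNA, with a median GC content of 34.8% against 36.8% at one-directional summits and 42.3% around all coding TSSs, and the part of base composition in the TATAAA shares was not tested. The E-box CAGCTG was in 12.5% of head-to-head peaks, 11.5% of one-directional ones and 13.5% of all coding TSSs, and the Pho core GCCAT in 26.9%, 25.8% and 30.8%. The site searched for GATA factors, AGATAA, was in 11.5%, 13.4% and 10.6%, and the E-box CACGTG in 2.57%, 2.74% and 2.79% of the same sets. The Zelda site CAGGTAG was in 2 of 584 head-to-head and 8 of 1058 one-directional peaks, and in replicate 1 alone in 5 (0.894%) and 8 (0.789%), so these counts give no order.

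**Figure D5:**
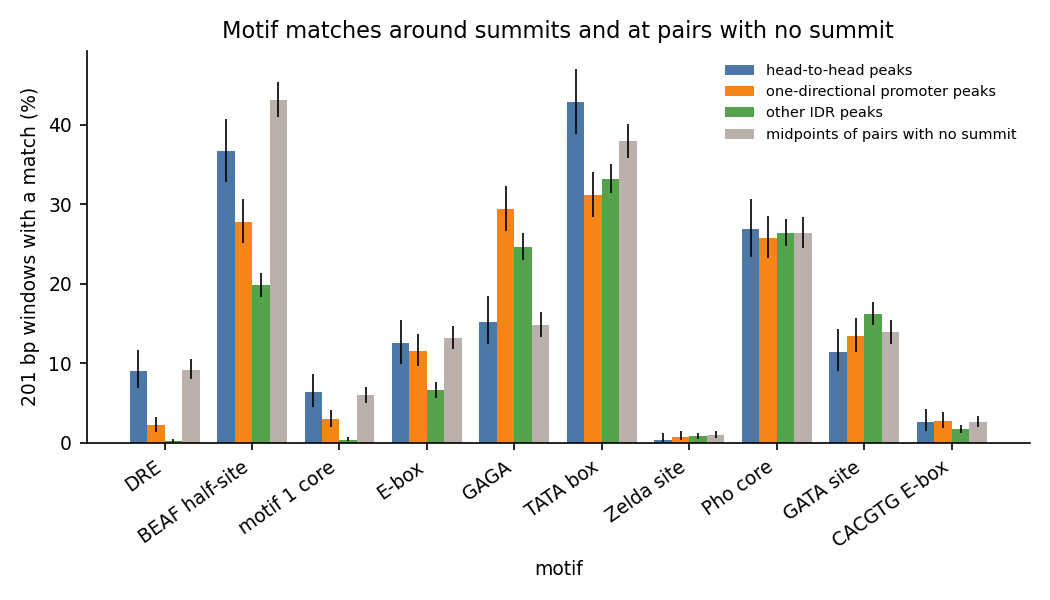
Share of windows (100 bp to each side, %, y axis) with a match to each of 10 motifs (x axis) at head-to-head peaks, one-directional peaks, other peaks and midpoints of pairs with no summit. Lines are exact binomial 95% intervals. Head-to-head bars lie above one-directional bars for the DRE (9.08% and 2.17%) and below them for GAGA (15.2% and 29.4%), and for these motifs close to the bars of pairs with no summit.

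Ribosomal protein peaks differed from the other head-to-head peaks in these letters. The DRE was in 16 of 52 of them (30.8%) and in 37 of 532 others (6.95%), CGATA in 34 (65.4%) and 33.8%, and CACGTG in 6 (11.5%) and 1.69%. TATAAA was in 10 of the 52 (19.2%) and in 45.1% of the others. Their GC content was higher, with a median of 43.5% against 34.3%. In the pooled list a match did not go with a stronger peak for the housekeeping motifs. The median signal was 187 for the 53 head-to-head peaks with a DRE and 193 without (81.7 and 90.6 in replicate 1, 110 and 107 in replicate 2). Of these 53 peaks 16 were ribosomal protein peaks, and the median without them was not computed. The median was 147 for the 37 peaks with a motif 1 core and 199 without (61.2 and 91.3 in replicate 1, 92.3 and 112 in replicate 2). The 67 peaks with AGATAA had a median of 229 and the others 187, with 116 and 87.0 in replicate 1 and 122 and 105 in replicate 2. These are descriptions of overlapping groups within 2 libraries, with no test.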

How the data were processed

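The authors deposited, for each of 2 biological replicate libraries, for both together (pooled) and for a set thresholded on the irreproducible discovery rate (IDR), a list of peaks with a signal value and a summit. The deposited signal is a value per peak whose normalization is not stated, used to rank peaks within a list. No source used here names the aligner or the peak caller and its settings, and fragments were sheared to 200 to 800 bp per the labels. The replicate and pooled lists are relaxed and hold 30000 peaks each. Read depth is unknown, so read counts have no interval, and exact binomial 95% intervals cover counting error only over peaks, pairs or TSSs.

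The dm6 lists were used, not the dm3 ones. Of the 4278 IDR peaks 13 repeat the interval of an earlier counted peak, which leaves 4265 distinct intervals. For 1 peak the summit lies outside its interval, and all peaks were kept. TSSs were the 19607 distinct transcript starts of protein-coding genes on X, 2L, 2R, 3L, 3R and 4 in the Ensembl annotation, and sequence came from the RefSeq copy of the Release 6 genome. Coordinates are 1-based. A replicate value is the signal of the overlapping peak (1 bp or more) of that replicate's relaxed list with the nearest summit. A pair counts as bound when an IDR summit lies in the gap or within 500 bp beyond it. The gap of a pair is the shortest between its start sites, and that of a peak is the gap at its nearest TSS. Lists and motifs hold 16 gene lists and 10 exact-letter motifs. Named peaks are the 24 strongest with a peak in both replicates, the 3 strongest per list, pairs with both genes in 1 list, the shortest and longest gap, the 5 strongest pairs with 2 summits and CG2875. The members and lists were chosen with earlier results of these data known. The name of 1 pair is not reported here. With 1 group of 2 libraries no test across samples was possible, and none is given. The functions were tested on simulated positions first. Alternatives were other TSS windows, upstream distances, gene-level TSSs, overlap rules, the stronger 50% of peaks and each replicate alone. The work used pandas 2.3.3 with numpy 2.4.6 in Python 3.11.15, intervals from scipy 1.17.1, and plots from matplotlib 3.10.9.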

Additional observations from a re-analysis of the deposited data

How the results depend on the processing

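The 584 peaks became 302 among the stronger 50% of peaks. Their share of IDR peaks, 13.7%, was 15.0% with a TSS window of 1000 bp, 9.65% with an upstream distance of 500 bp, 17.3% with 2000 bp and 12.3% with gene-level TSSs. The share of summits between the TSSs, 75.3%, was 68.5% with the window of 1000 bp, 65.9% with gene-level TSSs and 71.4 to 76.7% without 1 replicate. The median position across the gap (0 at the nearest TSS, 0.5 at the middle), 0.195, was 0.153 with the window of 1000 bp, 0.233 and 0.148 with upstream distances of 500 and 2000 bp, 0.153 with gene-level TSSs, 0.249 among the stronger 50% and 0.224 without ribosomal protein genes. The bound share of pairs, 22.6%, was 25.8% with the window of 1000 bp, 12.8% with the stronger 50% and 17.4% within 250 bp of the midpoint.

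The ratio of median signals, 0.970, was 1.04 with a TSS window of 250 bp or an upstream distance of 500 bp, 1.01 with a window of 1000 bp, 1.00 with gene-level TSSs, 0.954 to 0.966 without 1 replicate, 0.940 in the stronger 50% and 0.929 without ribosomal protein genes. The share found in both replicates, 59.2%, was 75% at 1 bp of overlap, 46.6% at 75% and 84.1% in the relaxed lists. The causes were not tested. Of 120 list values 8 moved beyond their exact interval, 7 of them with the stronger 50% of peaks, a shorter list that can only lower a bound share. Of 50 motif values 23 moved, 10 with windows of 200 bp and 9 with 50 bp to each side of the summit. Window length by itself changes how many windows hold a match. The other motif values moved with the stronger 50% (2), without replicate 1 (1) or without replicate 2 (1). The midpoint window and the removal of ribosomal protein genes were chosen after seeing the data. Unknown read depth, 1 fusion line and no untagged control limit all values.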
